A study of Mus musculus with 56 samples.

Results

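Liver mRNA levels of 10 genes of the vitamin K-dependent haemostatic system were described across all 7 treatment groups of the study. The genes were F2, F7, F10, F9, Proz, Proc, Pros1 and Gas6, whose proteins are carboxylated with the help of vitamin K. Ggcx, the carboxylase, and Vkorc1, the enzyme that returns vitamin K to its active form, made up the 10. The set was chosen by symbol, looked up by Ensembl identifier in the GENCODE vM21 annotation of GRCm38, and makes 10 of the 45513 genes listed. All 10 were among the 14314 genes left by the filter on low counts.

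The animals were female APOE*3Leiden.CETP mice, which carry the human APOE*3-Leiden and CETP transgenes. Their age is given as 9 to 14 weeks, without the time point it refers to. All groups were fed the same Western-type diet with 15% cacao butter and 0.15% cholesterol, for a run-in of 3 weeks and then throughout treatment. For 16 weeks 8 mice per group were gavaged with vehicle (control), with imatinib at 150 mg/kg 2 times a day, with nilotinib at 10 or 30 mg/kg once a day or with ponatinib at 3 or 10 mg/kg once a day. The remaining 8 mice drank water with 0.12 to 0.20% L-NAME, an inhibitor of nitric oxide synthase. The study's paper does not describe this group, so whether it was also gavaged is not known here. Imatinib, nilotinib and ponatinib are tyrosine kinase inhibitors given against chronic myeloid leukemia, but these mice had no leukemia, so the levels are those of drug-exposed livers without the disease. Poly(A) RNA of the whole liver was sequenced, 1 library per mouse.

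Vitamin K-dependent proteins share a Gla domain, in which glutamic acid residues are carboxylated so that the protein binds calcium and attaches to phospholipid membranes. Gamma-glutamyl carboxylase (Ggcx) makes this change in the endoplasmic reticulum and oxidises vitamin K as it does so, and the vitamin K epoxide reductase Vkorc1, the target of warfarin, returns the vitamin to its active form. Hepatocytes secrete most of these proteins as inactive precursors. Factor VII starts the extrinsic pathway with tissue factor, factors IX and X carry it forward, and prothrombin (F2) is the precursor of thrombin. Protein C, with protein S as its cofactor, limits clotting by inactivating the cofactors Va and VIIIa, and protein Z helps its serpin to block factor Xa. Gas6 is related to protein S and activates the TAM receptors Axl, Mertk and Tyro3.

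F7, F10 and Proz lie in a row on the same strand of chromosome 8, with Gas6 farther along on the opposite strand. The start of F10 is 1498 bases beyond the end of F7, and Proz begins 4237 bases beyond F10. The 250 bases before the start of F7 and F10 are shown because the levels of these neighbours moved together in the mice, and those of Vkorc1 because it was the member called against control in the largest number of treated groups, 4 of 6. The sequences are RefSeq's for GRCm38.p6, written 5′ to 3′ in the direction of the gene. Capitals mark CCAAT, the letters that NF-Y is known to bind, and AAGGTCA, the core letters of nuclear receptor sites, on either strand. The letters AAGGTCA were searched after the windows had been read.
F7, chr8:13025784-13026033, plus strand: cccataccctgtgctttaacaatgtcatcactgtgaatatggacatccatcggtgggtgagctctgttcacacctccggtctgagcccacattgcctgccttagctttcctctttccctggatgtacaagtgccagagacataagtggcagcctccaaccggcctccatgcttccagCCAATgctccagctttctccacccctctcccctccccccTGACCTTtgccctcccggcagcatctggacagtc
F10, chr8:13037058-13037307, plus strand: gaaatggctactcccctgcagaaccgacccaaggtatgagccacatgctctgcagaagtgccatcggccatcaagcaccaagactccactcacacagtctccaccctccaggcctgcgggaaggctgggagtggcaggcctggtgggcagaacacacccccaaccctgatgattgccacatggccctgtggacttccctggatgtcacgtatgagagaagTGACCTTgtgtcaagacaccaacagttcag
Vkorc1, chr7:127895618-127895867, minus strand: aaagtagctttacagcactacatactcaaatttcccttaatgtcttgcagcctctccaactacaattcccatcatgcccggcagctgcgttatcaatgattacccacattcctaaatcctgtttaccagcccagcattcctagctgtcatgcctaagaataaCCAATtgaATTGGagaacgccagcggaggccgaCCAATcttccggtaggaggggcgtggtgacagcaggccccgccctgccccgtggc
AAGGTCA was found on the opposite strand (as TGACCTT) in both F7, from base 34 before the start, and F10, from base 30 before it. Of 27025 promoter windows of the same length 4.05% held it, and of the 9 members searched these 2 did. Because the letters were searched after these windows had been read, the 2 of 9 is no test against that share. CCAAT stood 73 bases before the start of F7 and at 3 places before Vkorc1, the nearest of them 55 bases before the start, and 34.5% of all windows held it. The HNF1 letters GTTAAT were found for Proz (6.52% of all windows). CAAAGTCCA of HNF4 (0.381% of all windows), the TATA box TATAAA (13%), the antioxidant response core TGACNNNGC (10.1%) and the E box CACGTG (6.05%) were found in none of the 9. No marked match overlapped another, both strands were searched for each motif, and a match of letters is a description of the window and not a bound site. Each motif was searched only as the letters given. Other spellings of the same kind of site, for HNF4 too, were not looked for, so no match does not mean no site.

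Reads counted on genes ranged from 5342379 (nilotinib 10 mg/kg, replicate 1) to 97473341 (L-NAME, replicate 2) with a median of 7570238, and the next deepest library had 17996732. The scarcest member in any library was Vkorc1 with 140 reads, so each member was well above the detection limit in every mouse. Nilotinib 10 mg/kg replicate 1, then ponatinib 10 mg/kg replicate 4, lay farthest from the rest on the principal components of all genes. Values without these libraries, without the deepest one or without a ponatinib mouse of high Gas6 are given where a call changed. Reads that align uniquely but overlap no annotated gene made up 7.97% ± 0.422 (SD, n = 8) of uniquely aligned reads in control mice. The share was 8.53% ± 0.612 under ponatinib at 3 mg/kg, 9.75% ± 0.691 under nilotinib at 10 and 10.5% ± 1.38 at 30 mg/kg, 10.0% ± 1.82 under imatinib, 11.0% ± 2.45 with L-NAME and 11.0% ± 1.99 under ponatinib at 10 mg/kg. By a two-sided exact permutation test it was higher than in control in each treated group (p adjusted over 6 comparisons from 0.000233 to 0.0466). Nothing in the labels gives a batch or date. A library property thus moves with treatment, and its values are set beside the members further on.

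Per length, prothrombin mRNA was the most abundant member. Its mean over the 56 mice was 446 ± 60.2 RPKM (CPM divided by exon length in kilobases, ± SD), followed by Proc with 250.6 ± 48, F10 with 209.5 ± 36.9 and F7 with 78.78 ± 21.2 RPKM. F9, Gas6, Vkorc1 and Proz lay close together, at 69.62, 67.88, 54.03 and 48.6 RPKM. The carboxylase Ggcx at 25.2 ± 5.97 and protein S at 19.52 ± 4.58 RPKM were the least abundant. Between the lowest and the highest mouse the level differed 1.98-fold for F2 and 4.22-fold for Gas6, the narrowest and the widest range of the 10. In what follows levels are in CPM (counts per library size after TMM scaling), which is comparable between mice and not between genes of different length.

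**Figure D1:**
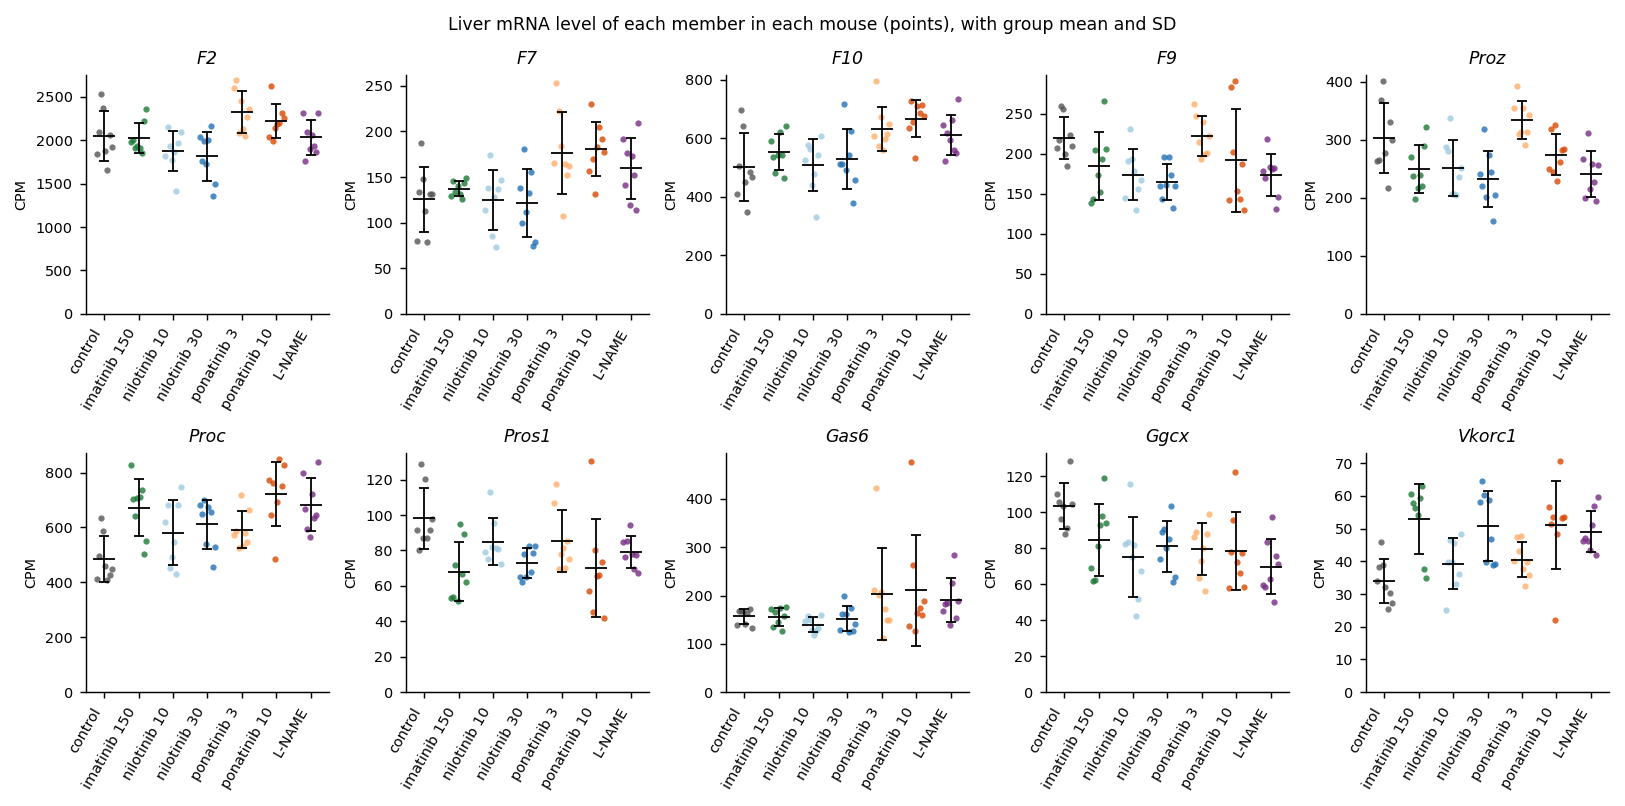
Liver mRNA level of the 10 members in CPM on linear axes from 0, with 1 point per mouse and the mean and SD of the 8 mice per group as bars; doses are in mg/kg. Vkorc1 and Proc sit lowest in the control mice, Ggcx and Pros1 sit highest there, and single mice stand out for Gas6 in both ponatinib groups (423.2 and 476.4 CPM).

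High-dose ponatinib changed the largest number of members, 5 of 10, at an edgeR adjusted p below 0.05, where 13.1% of all tested genes passed. F7, F10, Proc and Vkorc1 were higher than in control mice and Pros1 was lower. Without replicate 4 of this group Gas6 and Ggcx passed as well (7 of 10, with 2508 genes called in all in place of 1877). Without replicate 2 F7 did not (4 of 10, 1970 genes). With only these 2 groups in the fit Pros1 did not (4 of 10, 1688 genes). Under ponatinib at 3 mg/kg none of the 10 passed, beside 0.0419% of all genes, and at the study's cut-off, an unadjusted p below 0.01, F7 and F10 did (2 of 10, background 3.14%). DESeq2 called 0 at this dose. Imatinib changed 3 members (background 10.3%), with Proc and Vkorc1 higher and Pros1 lower. L-NAME changed 3 as well (background 11.8%), with Proc and Vkorc1 higher and Ggcx lower. DESeq2 also called F10 with L-NAME (4 of 10, with 1908 genes called in all in place of 1688). With only L-NAME and control in the fit F9 was called beside the 3 (4 of 10, 2440 genes). Nilotinib 30 mg/kg changed Vkorc1 alone (1 of 10, background 5.77%), and at the unadjusted cut-off F9, Proz, Proc and Pros1 passed too (5 of 10, background 9.35%). DESeq2 called 4 here (F9, Proz, Proc and Vkorc1), with 1007 genes called in all in place of 826. The edgeR fit without ponatinib 10 mg/kg replicate 2 also called 4 (F9, Proz, Pros1 and Vkorc1), with 839 genes in all. Under nilotinib at 10 mg/kg no member passed (background 1.41%), and Ggcx did at the unadjusted cut-off (1 of 10, background 5.97%). DESeq2 called 0 here too. At an unadjusted p below 0.05 the members were 4 with imatinib (background 23.5%), 4 and 6 under nilotinib at 10 and 30 mg/kg (14.2% and 18.7%), 5 and 7 under ponatinib at 3 and 10 mg/kg (9.96% and 25.8%) and 8 with L-NAME (24.2%). The median log2 fold change of the 10 members ran from -0.145 with the low nilotinib dose to 0.266 with the high ponatinib dose, beside 0.0094 and -0.0108 over all genes tested. A test of any difference among the 7 groups passed for 8 of the 10 members, F9 (edgeR adjusted p = 0.0516) and Ggcx (0.0844) being the others, while 18.7% of all genes passed it. All 10 passed without ponatinib 10 mg/kg replicate 4, where 3080 genes were called in all in place of 2672. All 10 also passed without the filter on low counts, where 6658 genes were called. That fit tested every gene with a read in any mouse. The number of these genes is not given here, so no share stands beside the 10. DESeq2 called 9 (all but Ggcx), with 3360 genes in all. Without ponatinib 3 mg/kg replicate 2 there were 7, F2 no longer passing, with 2604 genes in all. The comparisons with control share the same 8 control mice and are not independent of each other. In whole liver fewer cells of a type and less RNA per cell cannot be told apart.

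**Figure D2:**
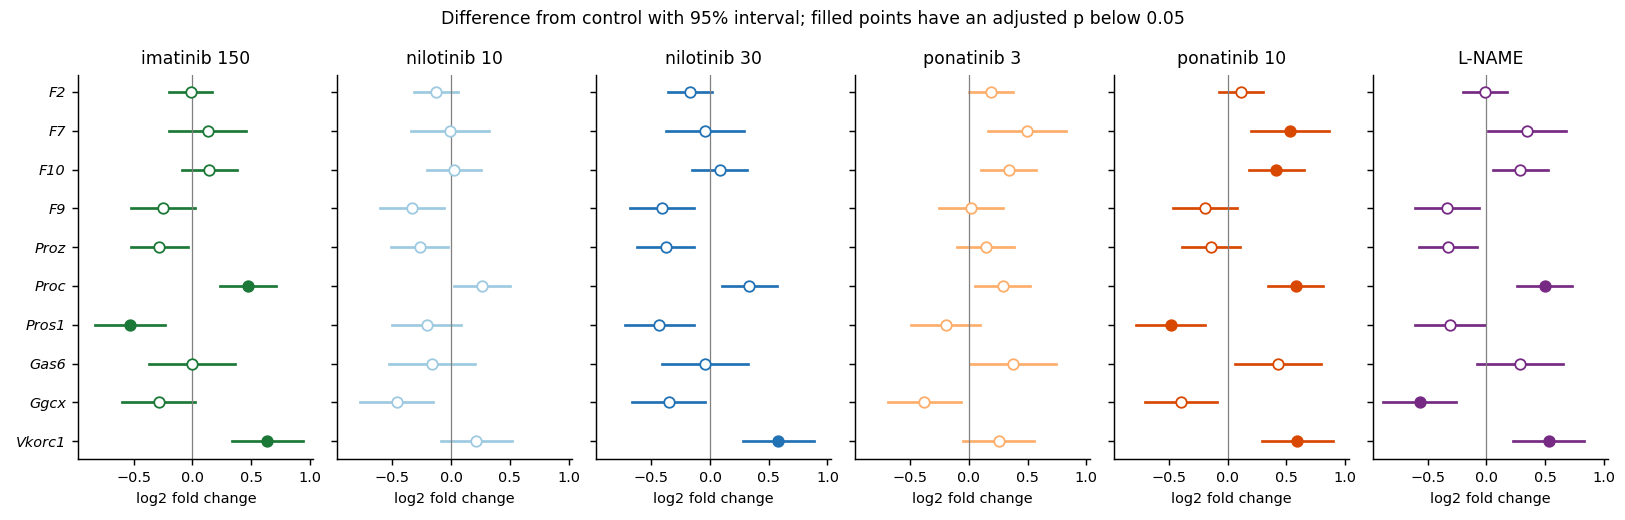
Log2 fold change of each member against control (horizontal axis) with its 95% interval in the 6 treated groups, doses in mg/kg; filled points have an edgeR adjusted p below 0.05. F7 and F10 lie near 0 with nilotinib and at 0.53 and 0.41 under ponatinib at 10 mg/kg, and Vkorc1 is filled in 4 of the 6 panels.

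Factor VII is the short-lived protease that, bound to tissue factor, starts the extrinsic pathway. F7 (ENSMUSG00000031443, chromosome 8, 13026034 to 13035809) had its lowest, median and highest level at 79.19, 131 and 187.1 CPM in control mice and at 131.4, 180.2 and 230.3 CPM under ponatinib at 10 mg/kg. All 8 ponatinib mice were above the control median and 3 of them above the highest control mouse, so the groups overlapped. The mean was 125.4 ± 35.4 CPM in controls and 180.6 ± 30 CPM under ponatinib at 10 mg/kg (SD, n = 8 each; log2 fold change 0.53, SE 0.166, edgeR adjusted p = 0.0249). Without replicate 2 of ponatinib 10 mg/kg, its highest F7 mouse, the log2 fold change was 0.47 and no longer passed (edgeR adjusted p = 0.0533). At 3 mg/kg the levels were 107.7, 164.4 and 253.3 CPM, a difference of nearly the same size that did not pass adjustment (log2 fold change 0.49, SE 0.166, edgeR adjusted p = 0.267, unadjusted p = 0.00414). From high to low the group means of F7 were 180.6 ± 30 CPM (SD) under ponatinib at 10 mg/kg, 176.4 ± 44.6 under ponatinib at 3 mg/kg, 159.5 ± 33.8 under L-NAME, 137.1 ± 8.36 under imatinib, 125.4 ± 35.4 in controls, 124.6 ± 33 under nilotinib at 10 mg/kg and 121.5 ± 37 under nilotinib at 30 mg/kg. Imatinib-treated mice were the most alike, between 125.6 and 148.5 CPM. The L-NAME group was next after ponatinib (log2 fold change 0.35, edgeR adjusted p = 0.18), and neither nilotinib dose moved it past the test (-0.01 and -0.04, 95% intervals -0.34 to 0.32 and -0.38 to 0.29).

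Factor X is activated by factors VII and IX and converts prothrombin. F10 (ENSMUSG00000031444, chromosome 8, 13037308 to 13056676) had levels of 348.9, 476.4 and 696.5 CPM (lowest, median and highest) in control mice and of 533.6, 681.1 and 728.9 CPM under ponatinib at 10 mg/kg. Every mouse of this group was above the control median and 3 of 8 were above all control mice. The mean rose from 500.9 ± 116 to 667.6 ± 62.4 CPM (SD, n = 8 each; log2 fold change 0.41, SE 0.116, edgeR adjusted p = 0.0108). Ponatinib 3 mg/kg gave 558.7, 611.3 and 795.1 CPM, all above the control median, and the difference again did not pass adjustment (log2 fold change 0.34, SE 0.116, edgeR adjusted p = 0.273, unadjusted p = 0.00486). The group means of F10 were 667.6 ± 62.4 CPM (SD) under ponatinib at 10 mg/kg, 633.4 ± 75 under ponatinib at 3 mg/kg, 611.7 ± 69.4 under L-NAME, 553.3 ± 62.8 under imatinib, 529.7 ± 103 under nilotinib at 30 mg/kg, 508.8 ± 89.1 under nilotinib at 10 mg/kg and 500.9 ± 116 in controls. As for F7, both ponatinib groups and then L-NAME (log2 fold change 0.29, edgeR adjusted p = 0.0966) stood at the top of this order. By DESeq2 the difference between L-NAME and control passed for F10.

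**Figure D3:**
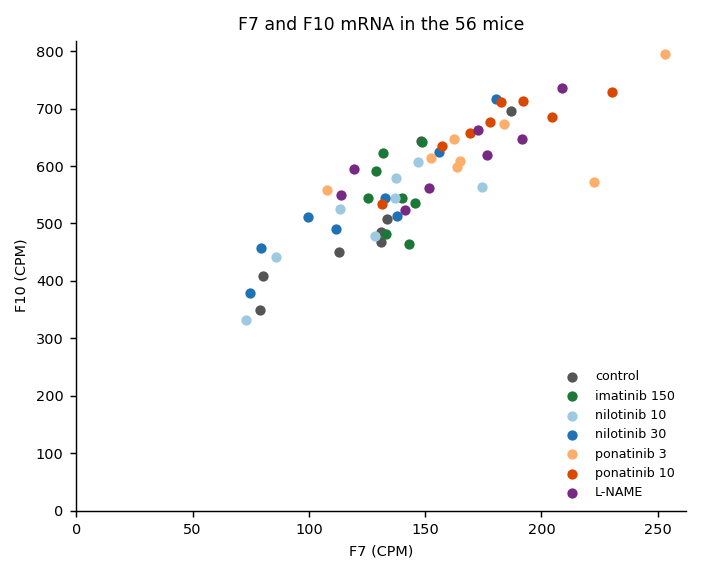
Level of F7 (horizontal axis) against F10 (vertical axis) in CPM, 1 point per mouse, coloured by group with doses in mg/kg. The points follow a rising band over all 56 mice (Pearson r = 0.876 on log2 CPM), and the mice with the lowest levels belong to the control and nilotinib groups.

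With all 56 mice in the edgeR fit, neither prothrombin nor factor IX mRNA passed in a comparison with control. F2 (ENSMUSG00000027249, chromosome 2, 91625320 to 91636414) had means of 2328 ± 240 CPM (SD) under ponatinib at 3 mg/kg, 2219 ± 197 under ponatinib at 10 mg/kg, 2046 ± 287 in controls, 2032 ± 205 under L-NAME, 2024 ± 176 under imatinib, 1876 ± 225 under nilotinib at 10 mg/kg and 1817 ± 282 under nilotinib at 30 mg/kg. The levels under ponatinib at 3 mg/kg (2046, 2313 and 2690 CPM) were all above the control median, of 1996 CPM, but no comparison with control passed (log2 fold changes from -0.17 to 0.19, lowest edgeR adjusted p = 0.334). Factor IX, missing in haemophilia B, is encoded on chromosome X. F9 (ENSMUSG00000031138, 59999464 to 60030759) was at 222.6 ± 24.8 CPM (SD) under ponatinib at 3 mg/kg, 219.8 ± 26.3 in controls, 191.8 ± 63.9 under ponatinib at 10 mg/kg, 184.9 ± 42.4 under imatinib, 174.2 ± 31.9 under nilotinib at 10 mg/kg, 173.8 ± 26.3 under L-NAME and 165.3 ± 22.6 under nilotinib at 30 mg/kg. Under nilotinib at 30 mg/kg all 8 mice (132.7, 160.3 and 196 CPM) were below the control median and 6 were below every control mouse (184.5, 213.4 and 260.2 CPM), with a difference just short of the threshold (log2 fold change -0.41, SE 0.136, edgeR adjusted p = 0.0582). It passed without ponatinib 10 mg/kg replicate 4 or 2 (edgeR adjusted p = 0.0385 and 0.0432), with only the 2 groups in the fit (0.0149) and by DESeq2 (adjusted p = 0.0491). With L-NAME 7 of 8 mice were below every control mouse (log2 fold change -0.34, SE 0.136, edgeR adjusted p = 0.0964), and the difference passed with only these 2 groups in the fit (edgeR adjusted p = 0.0314). Ponatinib 10 mg/kg spread F9 widely, from 129.9 to 291 CPM, with 4 mice below and 2 above all control mice. The 2 above were replicates 4 and 2, and the log2 fold change of -0.20 was -0.31 without the former and -0.30 without the latter, neither of which passed (edgeR adjusted p = 0.108 and 0.133).

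Protein Z assists the serpin Serpina10 in blocking factor Xa. Proz (ENSMUSG00000031445, chromosome 8, 13060914 to 13076026) was at 334.5 ± 32.9 CPM (SD) under ponatinib at 3 mg/kg, 303 ± 60.3 in controls, 274.6 ± 34.7 under ponatinib at 10 mg/kg, 251.8 ± 48 under nilotinib at 10 mg/kg, 249.4 ± 41.3 under imatinib, 241.4 ± 39.5 under L-NAME and 233.1 ± 48 under nilotinib at 30 mg/kg. The mean was higher at the low than at the high ponatinib dose, a difference that did not pass adjustment (log2 fold change -0.28, edgeR adjusted p = 0.252). Under nilotinib at 30 mg/kg the levels were 160.9, 230.8 and 318.1 CPM beside 217.8, 288.4 and 400.7 CPM in control mice, and 3 of 8 mice were below all of these. The difference lay at the threshold (log2 fold change -0.38, SE 0.122, edgeR adjusted p = 0.0503). It passed when L-NAME replicate 2 or nilotinib 10 mg/kg replicate 1 was left out of the fit (edgeR adjusted p = 0.0464 and 0.0461). The same held without ponatinib 10 mg/kg replicate 4 or 2 and by DESeq2. F7, F10 and Proz are neighbours, yet under nilotinib at 30 mg/kg their log2 fold changes were -0.04, 0.08 and -0.38.

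Of the anticoagulant pair, protein C was higher and protein S lower than in control mice with imatinib and high-dose ponatinib. Proc (ENSMUSG00000024386, chromosome 18, 32123126 to 32139570) encodes the zymogen that thrombomodulin-bound thrombin activates. Its lowest, median and highest levels were 409.8, 453.6 and 635.8 CPM in control mice and 484.5, 756.4 and 849.6 CPM under ponatinib at 10 mg/kg, where 7 of 8 mice were above every control mouse (log2 fold change 0.58, SE 0.119, edgeR adjusted p = 0.000569). Given imatinib they were 503, 705.5 and 828.2 CPM, with 6 of 8 above every control mouse (log2 fold change 0.47, SE 0.118, edgeR adjusted p = 0.00574). With L-NAME they were 563.6, 657.2 and 838 CPM, with 5 of 8 above (log2 fold change 0.49, SE 0.118, edgeR adjusted p = 0.00311). The lowest mouse under ponatinib at 10 mg/kg was replicate 4, the library that stood apart. Group means of Proc were 723.4 ± 117 CPM (SD) under ponatinib at 10 mg/kg, 682.9 ± 96 under L-NAME, 672.8 ± 104 under imatinib, 611.4 ± 90.2 under nilotinib at 30 mg/kg, 591.2 ± 67.5 under ponatinib at 3 mg/kg, 581.2 ± 119 under nilotinib at 10 mg/kg and 484.6 ± 84.1 in controls. At both nilotinib doses and at the low ponatinib dose the fold changes of 0.26, 0.34 and 0.29 on the log2 scale missed the threshold (edgeR adjusted p = 0.28, 0.0784 and 0.369). By DESeq2 Proc passed under nilotinib at 30 mg/kg.

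Protein S (Pros1, ENSMUSG00000022912, chromosome 16, 62854307 to 62929346) had levels of 80.3, 91.73 and 128.8 CPM in control mice, of 51.29, 64.33 and 94.71 CPM with imatinib and of 41.75, 65.92 and 130.7 CPM under ponatinib at 10 mg/kg. With imatinib 6 of 8 mice were below every control mouse (log2 fold change -0.53, SE 0.148, edgeR adjusted p = 0.0135). Under ponatinib at 10 mg/kg 7 of 8 were below every control mouse and the eighth, replicate 2, was above all of them (log2 fold change -0.49, SE 0.148, edgeR adjusted p = 0.0204). Without this mouse the log2 fold change was -0.68 (edgeR adjusted p = 0.000382), and Pros1 then also differed from ponatinib 3 mg/kg (-0.48, edgeR adjusted p = 0.0405). The group means were 98.14 ± 17.2 CPM (SD) in controls, 85.53 ± 17.6 under ponatinib at 3 mg/kg, 84.91 ± 13.2 under nilotinib at 10 mg/kg, 79.17 ± 8.82 under L-NAME, 72.78 ± 8.51 under nilotinib at 30 mg/kg, 70.02 ± 27.8 under ponatinib at 10 mg/kg and 67.91 ± 16.6 under imatinib. Nilotinib 30 mg/kg put 6 of 8 mice below every control mouse, with a difference that missed the threshold (log2 fold change -0.43, SE 0.148, edgeR adjusted p = 0.0699). This difference passed without ponatinib 10 mg/kg replicate 2 and with only nilotinib 30 mg/kg and control in the fit.

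Gas6 (ENSMUSG00000031451, chromosome 8, 13465374 to 13494490) is a ligand of receptor kinases rather than a clotting factor. Its levels were 133, 166.4 and 171.5 CPM in control mice, 112.8, 187.2 and 423.2 CPM under ponatinib at 3 mg/kg and 126.2, 168.9 and 476.4 CPM with 10 mg/kg. In each ponatinib group a single mouse, replicate 2 in both, lay far above the other 7. The comparisons with control did not pass (log2 fold change 0.38, SE 0.183, edgeR adjusted p = 0.481 at 3 mg/kg and log2 fold change 0.43, SE 0.183, edgeR adjusted p = 0.115 at 10 mg/kg). Without its own replicate 2 the log2 fold change was 0.13 at the low dose and 0.14 at the high dose, so the size of the ponatinib value rests on these 2 mice. The 2 mice also had the highest F2 and F7 levels of their groups, and their shares of reads ambiguous between genes, 3.37% at the low and 3.65% at the high dose, were the 2 highest of the 56 libraries. Their summed markers of sinusoidal endothelial cells (152.4 CPM at the low and 115.6 CPM at the high dose) and of stellate cells (433.5 and 194 CPM) were the 2 lowest of the 56 mice, and the high-dose mouse also had the second lowest hepatocyte sum, 71330 CPM. The part of these measures in Gas6, or in the high Pros1 of the latter mouse, was not tested. The group means of Gas6 were 210.9 ± 115 CPM (SD) under ponatinib at 10 mg/kg, 203.4 ± 95.2 under ponatinib at 3 mg/kg, 190.9 ± 45.8 under L-NAME, 156.8 ± 16.3 in controls, 156.6 ± 18.6 under imatinib, 152.4 ± 26.2 under nilotinib at 30 mg/kg and 139.8 ± 15.6 under nilotinib at 10 mg/kg. Exons of Gas6 share 34 bases with exons of Tmem255b on the other strand, and the library kit does not mark strand, but Tmem255b had at most 29 reads in any mouse.

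The enzymes of the vitamin K cycle changed in opposite directions with L-NAME, Vkorc1 upward and Ggcx downward. In every treated group the log2 fold change was above 0 for Vkorc1 and below 0 for Ggcx. With all mice in the edgeR fit both passed with L-NAME only. Vkorc1 (ENSMUSG00000096145, chromosome 7, 127893063 to 127895617) had its lowest, median and highest levels at 25.52, 32.98 and 45.93 CPM in control mice, 34.75, 57 and 62.86 CPM with imatinib, 38.95, 52.46 and 64.63 CPM under nilotinib at 30 mg/kg, 22.05, 53.29 and 70.71 CPM under ponatinib at 10 mg/kg and 41.91, 46.77 and 59.5 CPM with L-NAME. Above every control mouse were 6, 5, 7 and 6 of the 8 mice of these groups. The difference passed in all of them: with imatinib (log2 fold change 0.64, SE 0.151, edgeR adjusted p = 0.00338), under nilotinib at 30 mg/kg (log2 fold change 0.58, SE 0.151, edgeR adjusted p = 0.0117), under ponatinib at 10 mg/kg (log2 fold change 0.59, SE 0.151, edgeR adjusted p = 0.00499) and with L-NAME (log2 fold change 0.53, SE 0.151, edgeR adjusted p = 0.0127). At the lower doses it did not (0.21 under nilotinib at 10 mg/kg and 0.26 under ponatinib at 3 mg/kg, edgeR adjusted p = 0.584 and 0.602). A mouse given ponatinib 10 mg/kg, replicate 4, was below every control mouse at 22.05 CPM, and without it the log2 fold change was 0.70. The group means were 52.88 ± 10.7 CPM (SD) under imatinib, 51.15 ± 13.5 under ponatinib at 10 mg/kg, 50.79 ± 10.8 under nilotinib at 30 mg/kg, 49.07 ± 6.28 under L-NAME, 40.5 ± 5.41 under ponatinib at 3 mg/kg, 39.31 ± 7.76 under nilotinib at 10 mg/kg and 34 ± 6.76 in controls. Between L-NAME and ponatinib 3 mg/kg the step of 8.57 CPM was 1.36 times the larger SD of the pair. It was the only step between neighbours in this order, over all 10 members, that exceeded the larger SD. In GENCODE vM21 Vkorc1 shares 401 of its 840 exonic bases with Gm21974, annotated on the same strand, and a counter that drops ambiguous reads would lose reads there. Gm21974 had no reads in any mouse.

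Ggcx (ENSMUSG00000053460, chromosome 6, 72414308 to 72430712), the carboxylase, had levels of 87.91, 104 and 128.8 CPM in control mice and 49.99, 66.96 and 97.34 CPM with L-NAME, where 7 of 8 mice were below every control mouse (log2 fold change -0.57, SE 0.155, edgeR adjusted p = 0.00945). Under nilotinib at 10 mg/kg 7 of 8 were also below every control mouse (42.63, 78.59 and 115.8 CPM), and the difference passed the unadjusted cut-off and not the adjusted one (log2 fold change -0.46, SE 0.155, edgeR adjusted p = 0.106, unadjusted p = 0.00406). The group means were 103.5 ± 12.7 CPM (SD) in controls, 84.81 ± 20 under imatinib, 81.02 ± 14.3 under nilotinib at 30 mg/kg, 79.52 ± 14.3 under ponatinib at 3 mg/kg, 78.57 ± 21.5 under ponatinib at 10 mg/kg, 75.09 ± 22.3 under nilotinib at 10 mg/kg and 69.84 ± 15.4 under L-NAME. The difference did not pass with imatinib (-0.29, edgeR adjusted p = 0.259), nilotinib 30 mg/kg (-0.35, 0.185), ponatinib 3 mg/kg (-0.38, 0.362) or ponatinib 10 mg/kg (-0.40, 0.0785). Under ponatinib at 10 mg/kg it passed when replicate 4 of that group was left out.

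With all mice in the fit, higher and lower doses of the same compound were not told apart at any member. Between ponatinib 10 and 3 mg/kg none of the 10 passed, beside 1.39% of all genes at an adjusted p below 0.05, and none passed the unadjusted cut-off, beside 5.78%. Proz, Proc and Vkorc1 had an unadjusted p below 0.05 (3 of 10, background 14.4%), and DESeq2 called 0. For F7 the log2 difference was 0.03 (95% interval -0.30 to 0.36) and for F10 0.08 (-0.16 to 0.31), while that of Proc was 0.29 (0.05 to 0.53) and that of Vkorc1 0.34 (0.04 to 0.64). Without ponatinib 10 mg/kg replicate 4, Vkorc1 passed (0.45, edgeR adjusted p = 0.044), and without its replicate 2, Pros1 did (-0.48, edgeR adjusted p = 0.0405). Between nilotinib 30 and 10 mg/kg none passed either, beside 0% of all genes in edgeR's adjusted test (2 genes by DESeq2) and 1.32% at the unadjusted cut-off. DESeq2 called no member, and at an unadjusted p below 0.05 Vkorc1 alone was counted (1 of 10, background 5.67%). Vkorc1 had the widest difference there (0.37, 95% interval 0.07 to 0.67, edgeR adjusted p = 0.773).

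Ponatinib and nilotinib were both given at 10 mg/kg once a day, which allows 1 comparison between inhibitors at a matched nominal dose, though not at a matched plasma exposure. None of the 10 members passed edgeR's adjusted threshold, beside 2.06% of all genes. DESeq2 called 3 (F7, F10 and Gas6), with 502 genes called in all in place of edgeR's 295. F7, F10, Proc and Gas6 passed the unadjusted cut-off (4 of 10, background 6.73%), all with higher levels under ponatinib. At an unadjusted p below 0.05 there were 6 (background 15.3%). F10 was nearest to the threshold, with 533.6, 681.1 and 728.9 CPM under ponatinib against 332.7, 534.7 and 607 CPM under nilotinib (log2 fold change 0.39, SE 0.116, edgeR adjusted p = 0.0546). F7 differed by 0.54 on the log2 scale (95% interval 0.20 to 0.87, edgeR adjusted p = 0.0666) and Gas6 by 0.59 (0.23 to 0.96, edgeR adjusted p = 0.066). For Gas6 the difference was 0.31 without ponatinib 10 mg/kg replicate 2 (edgeR adjusted p = 0.334). Without replicate 4 of that group, 5 members passed (F7, F10, Proc, Gas6 and Vkorc1), with 535 genes called in all in place of 295. F10 was then at 0.43 (edgeR adjusted p = 0.0267). Ggcx was not told apart between the inhibitors (0.07, 95% interval -0.24 to 0.38).

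Over the 56 mice, F7 and F10 were each among the genes most like the other. Their log2 CPM had a Pearson r of 0.876 (0.823 after subtraction of the group means), the highest that F7 had with any of the other tested genes, and for F10 only Vtn, encoding the plasma protein vitronectin, was higher (0.878). F2 followed both (r = 0.822 with F7 and 0.795 with F10) and was most like Plg, the gene of plasminogen (0.897). Proz was also most like Plg (0.858) and, among the members, F2 (0.763). The nearest genes to F9, Pros1 and Ggcx were Man1a (0.859), Nat8f2 (0.73) and Larp1 (0.765). Proc was most like Ttc36 (0.929) and Vkorc1 most like Gcgr, the glucagon receptor (0.833), and among the members they were nearest to each other (0.744). Gas6 was most like the acute-phase genes Orm1 (0.801) and Apcs (0.787). Proc and Pros1 ran opposite to each other (r = -0.52, and -0.324 after subtraction of the group means). The points share library depth, scaling and group, so these values describe the mice and were not tested.

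**Figure D4:**
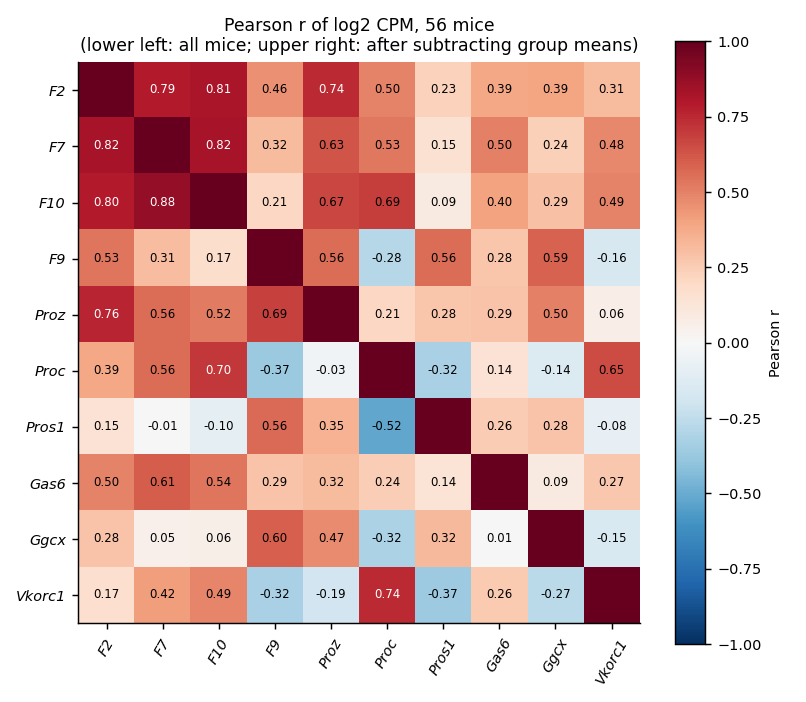
Pearson r of log2 CPM for each pair of members over the 56 mice, below the diagonal as measured and above it after subtraction of the group means; red is positive and blue negative. F2, F7, F10 and Proz form a block of positive values, and the lowest value is -0.52 for Proc and Pros1.

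The share of reads on no annotated gene varied with some members and hardly with others. Over the 56 mice its Pearson r was -0.541 with Pros1, -0.49 with Proz, -0.428 with F9 and 0.493 with Proc. It was 0.414 with Vkorc1, 0.106 with F7 and 0.149 with F10. After subtraction of the group means the values, in the same order, were -0.417, -0.337, -0.231, 0.257, 0.161, 0.0261 and -0.0083. With this share as a covariate in the fit, the ponatinib 10 mg/kg value moved from 0.53 to 0.52 for F7 and from 0.41 to 0.42 for F10. Their edgeR adjusted p rose to 0.127 and 0.0742, so neither passed, with 369 genes called in place of 1877. For Pros1 the value moved from -0.49 to -0.27 under ponatinib at 10 mg/kg and from -0.31 to -0.05 with L-NAME. Vkorc1 went from 0.64 to 0.58 with imatinib, from 0.58 to 0.52 under nilotinib at 30 mg/kg, from 0.59 to 0.51 under ponatinib at 10 mg/kg and from 0.53 to 0.46 with L-NAME. Its call was lost in the last 3 and held with imatinib (edgeR adjusted p = 0.0246). Proc stayed past the threshold under ponatinib at 10 mg/kg (0.46, edgeR adjusted p = 0.0498). In all 1 member was called with imatinib, 1 under high-dose ponatinib and 0 under high-dose nilotinib or L-NAME. Of the 14314 genes tested 653, 369, 96 and 258 were called in these groups, in that order. Of any difference among the groups, F7 and F10 were the 2 members that still passed, beside 1144 of all genes. The share differs between the groups themselves, so its part and that of the treatment cannot be told apart.

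**Figure D5:**
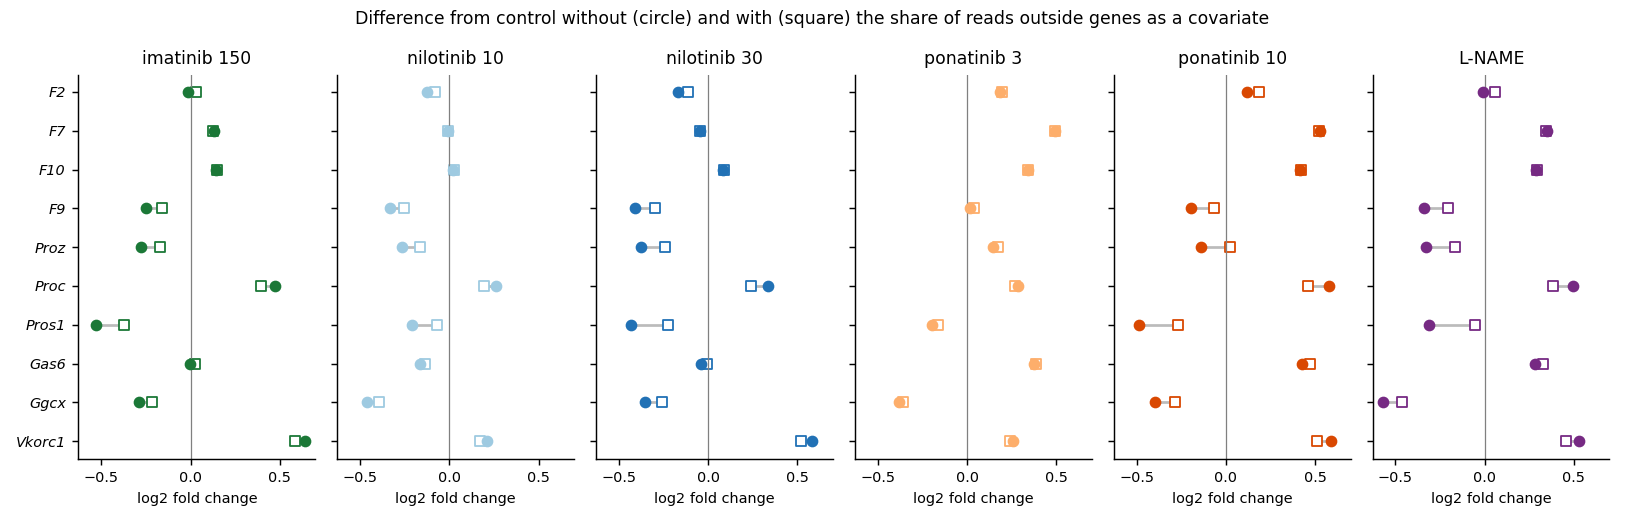
Log2 fold change of each member against control (horizontal axis) in the 6 treated groups, doses in mg/kg, without (filled circles) and with (open squares) the fraction of reads that hit no annotated gene in the model. For ponatinib at 10 mg/kg F7 goes from 0.53 to 0.52 and Pros1 from -0.49 to -0.27.

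Among the 10 other genes of the vitamin K cycle and of propeptide processing, the calls fell on Furin, Calu, Pcsk6 and Vkorc1l1. Each call was lower than in control mice, and the groups share the same control mice. The number that passed was 1 with imatinib, 2 with nilotinib at either dose, 0 and 2 with ponatinib 3 and 10 mg/kg and 4 with L-NAME, where the shares over all genes were 10.3%, 1.41% and 5.77%, 0.0419% and 13.1%, and 11.8%. Against these shares, 1 of 10 with imatinib is near the background and 2 of 10 under ponatinib at 10 mg/kg little above it. The list's median log2 fold change ran from -0.105 under ponatinib at 3 mg/kg to -0.329 with L-NAME. Medians of all tested genes lay between -0.0215 and 0.0295. Furin, a convertase that cuts propeptides off secretory precursors, fell with nilotinib 10 and 30 mg/kg (-0.66 and -0.68, edgeR adjusted p = 0.00742 and 0.00097), ponatinib 10 mg/kg (-0.47, edgeR adjusted p = 0.0101) and L-NAME (-0.68, edgeR adjusted p = 0.000353). Calu, encoding calumenin, which restrains the carboxylase, fell with imatinib (-0.45, edgeR adjusted p = 0.0134), ponatinib 10 mg/kg (-0.51, edgeR adjusted p = 0.0031) and L-NAME (-0.52, edgeR adjusted p = 0.00311). Pcsk6, a related convertase, fell with both nilotinib doses and L-NAME (from -0.50 to -0.52). The reductase Vkorc1l1, a paralog of Vkorc1, was lower with L-NAME (-0.44, edgeR adjusted p = 0.047), where Vkorc1 was higher. With the share of reads on no gene as covariate, 1 of these 11 calls held, that of Furin with L-NAME (-0.51, edgeR adjusted p = 0.0419). Furin under nilotinib at 30 mg/kg was then at -0.52 and Calu with L-NAME at -0.29 (edgeR adjusted p = 0.0534 and 0.266). Of other Gla protein genes, 4 of 7 could be tested (Mgp, Prrg1, Prrg2 and Prrg3) and none passed in any comparison with control by edgeR, nor had any an unadjusted p below 0.05.

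Of 15 other clotting and fibrinogen genes tested, 4 passed under ponatinib at 10 mg/kg, 2 under nilotinib at 30 mg/kg, 2 with L-NAME, 1 with imatinib and 0 in the remaining groups, beside 13.1%, 5.77%, 11.8% and 10.3% of all genes in the first 4. Read against these shares, 2 of 15 with L-NAME and 1 of 15 with imatinib are near the background. Their median log2 fold change was highest under the low ponatinib dose (0.304) and lowest under the high nilotinib dose (-0.0605). The kininogen genes Kng1 and Kng2 rose under ponatinib at 10 mg/kg (0.57 and 0.57, edgeR adjusted p = 0.00147 and 0.00109). They are near copies of each other, so their counts may share reads. F8, the cofactor that protein C inactivates and which endothelial cells make, fell under ponatinib at 10 mg/kg (-0.94, edgeR adjusted p = 0.0474). F5, the other cofactor, fell under nilotinib at 30 mg/kg (-0.48, edgeR adjusted p = 0.00285) and L-NAME (-0.44, edgeR adjusted p = 0.00242), and F13b, the carrier subunit of factor XIII, fell with imatinib (-0.44), nilotinib 30 mg/kg (-0.51), ponatinib 10 mg/kg (-0.42) and L-NAME (-0.49). With the covariate, the calls of Kng1 and Kng2 held (0.65 and 0.64, edgeR adjusted p = 0.00983 and 0.00983) and those of F5, F8 and F13b were lost, F8 at -1.12 and F13b between -0.30 and -0.19.

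Of 11 inhibitors and cofactors of the proteases that were tested, 4 passed with imatinib (1 higher and 3 lower), 1 under nilotinib at 10 mg/kg, 3 under nilotinib at 30 mg/kg, 0 under ponatinib at 3 mg/kg, 2 under ponatinib at 10 mg/kg and 3 with L-NAME, beside 10.3%, 1.41%, 5.77%, 0.0419%, 13.1% and 11.8% of all genes. Their median log2 fold change lay between -0.277 with imatinib and 0.126 under the low ponatinib dose. Serpinc1, the gene of antithrombin, rose under ponatinib at 10 mg/kg (0.27, edgeR adjusted p = 0.0345). Serpind1, encoding heparin cofactor II, fell with imatinib (-0.39), nilotinib 30 mg/kg (-0.41) and L-NAME (-0.32). C4bp fell with imatinib (-0.41, edgeR adjusted p = 0.0267). The alpha-1-antitrypsin gene Serpina1a, with near-identical copies that make its count uncertain, rose with imatinib, nilotinib 30 mg/kg, ponatinib 10 mg/kg and L-NAME (from 0.44 to 0.66), and Pzp fell with imatinib, both nilotinib doses and L-NAME (from -0.55 to -0.80). With the covariate, Serpina1a held its call with imatinib, ponatinib 10 mg/kg and L-NAME (from 0.50 to 0.60), and not under nilotinib at 30 mg/kg (0.39), and the calls of Pzp, Serpind1, Serpinc1 and C4bp were lost, C4bp at -0.27 and Serpinc1 at 0.22.

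Of 4 receptor genes tested, 2 fell with imatinib and under ponatinib at 10 mg/kg, where the list's median log2 fold change was -0.436 and -0.53 and 10.3% and 13.1% of all genes passed. Axl, the receptor for Gas6, had a log2 fold change of -0.95 with imatinib and -0.78 under ponatinib at 10 mg/kg (edgeR adjusted p = 0.00279 and 0.0109), and it was lower with ponatinib than with nilotinib at 10 mg/kg (-0.81, edgeR adjusted p = 0.0314), the comparison in which Gas6 was at 0.59. F2r, the thrombin receptor PAR1, had -0.75 and -1.09 (edgeR adjusted p = 0.0302 and 0.00124). With the covariate, Axl held its call with imatinib (-0.87) and not under ponatinib (-0.67, edgeR adjusted p = 0.137), and F2r held it under ponatinib (-1.10) and not with imatinib (-0.76, edgeR adjusted p = 0.0681). Of 15 hepatocyte transcription factors 2 passed with imatinib, 1 under nilotinib at 30 mg/kg and 2 with L-NAME, near the 10.3%, 5.77% and 11.8% of all genes, with list medians between -0.053 and 0.152. Hnf4a, a factor known to drive many clotting factor genes, fell under nilotinib at 30 mg/kg (-0.53, edgeR adjusted p = 0.00643) and L-NAME (-0.47, edgeR adjusted p = 0.00883), and was at -0.25 under ponatinib at 10 mg/kg (edgeR adjusted p = 0.211). Nr1i3, encoding the receptor CAR, rose with imatinib (1.13, edgeR adjusted p = 0.000685) and L-NAME (0.72, edgeR adjusted p = 0.0247), and Nr1i2, encoding PXR, rose with imatinib (0.47, edgeR adjusted p = 0.0415). Of these 5 calls that of Nr1i3 with imatinib held with the covariate (0.92, edgeR adjusted p = 0.0152), and Hnf4a was at -0.41 under nilotinib at 30 mg/kg and -0.33 with L-NAME (edgeR adjusted p = 0.147 and 0.22).

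The samples carried the markers of liver. The summed level of 7 hepatocyte markers, Alb and Apoa1 among them, was 80000 to 144300 CPM in controls and 71330 to 146400 CPM under ponatinib at 10 mg/kg, with a range between 70950 and 151100 over all groups, and 4 of the 7 were called at that dose (2 higher and 2 lower). The 8 Kupffer cell markers summed to 784.9 to 1579 CPM in controls and to 469 to 965.7 CPM with imatinib, where 3 of the 8 were called lower, and 2 were called higher under ponatinib at 10 mg/kg. The 8 sinusoidal endothelial markers summed to 186 to 555.8 CPM in controls and to 115.6 to 335.4 CPM under ponatinib at 10 mg/kg. None was called against control, but all 8 had a log2 fold change below 0 at both ponatinib doses (medians -0.508 at 3 and -0.399 at 10 mg/kg). Between ponatinib and nilotinib at 10 mg/kg, where Axl and Gas6 are given above, all 8 were lower under ponatinib (median -0.761) and 3 were called. Stellate markers summed to 503.2 to 776.3 CPM in controls and to 194 to 853.5 CPM under ponatinib at 10 mg/kg. The 6 cholangiocyte markers reached 57.51 to 205 CPM and the 6 lymphocyte markers 3.771 to 13.02 CPM in controls, and each lymphocyte marker, 4 of the 6 cholangiocyte markers (Krt19, Krt7, Epcam and Cldn7) and the stellate marker Hgf were at 0 in some of the 56 mice. Axl, F2r, F8 and Gas6 are also expressed outside hepatocytes, and the part of these other cells in their values was not tested.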

How the data were processed

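Whole-liver poly(A) RNA from 56 mice (8 per group) had been sequenced from libraries of a kit that does not mark strand. Per the labels the authors aligned the reads to GRCm38 with TopHat2 2.0.14 and Bowtie2 2.1.0, handled alignments with SAMtools 0.1.18 and counted with HTSeq 0.6.1p1. They deposited raw read counts per Ensembl gene and mouse, without normalization. Counting used a GRCm38 gene annotation, whose release, like the strand setting, is not given in the sources used here. Symbols, positions and exon lengths came from GENCODE vM21, which matched 44585 of 45513 identifiers.

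Counts of all 56 mice were fitted together with edgeR 4.0.16 in R 4.3.3 (filterByExpr, TMM scaling, quasi-likelihood test over 14314 genes), and a gene was called at a Benjamini-Hochberg adjusted p below 0.05 over all of them. The study's cut-off, an unadjusted p below 0.01, is given beside. CPM are TMM-scaled, and RPKM divide them by exon length. The fit was tested on simulated data. Shares of reads outside genes were compared by exact permutation tests. Alternatives were DESeq2 1.42.0 size factors and its test, no filter, only the groups compared, the share of reads outside genes as a covariate and 5 libraries left out in turn. Members, gene lists and marker lists were chosen with earlier results of these data known. All 10 members are named, and of each list at most 6 genes called in any comparison with control, by the size of the change. Likeness is the Pearson r of log2 CPM with a prior count of 2 over the 56 mice, with the 3 nearest genes considered. Replicates are separate mice numbered in accession order.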

Additional observations from a re-analysis of the deposited data

Results flagged for a closer look

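In 4 of the 70 sets of 8 mice (10 members in 7 groups), 1 mouse lay farther from its nearest neighbour than 0.526 of the whole range of its group, which chance gives in about 1 of 20 sets. For Gas6 it was ponatinib 3 mg/kg replicate 2 with 423.2 CPM, beside 112.8 to 211.2 CPM in the other 7 mice. It was also ponatinib 10 mg/kg replicate 2 with 476.4 CPM, beside 126.2 to 262.5 CPM. The latter mouse stood out for Pros1 too, with 130.7 CPM beside 41.75 to 80.18 CPM. For Vkorc1 it was ponatinib 10 mg/kg replicate 4 with 22.05 CPM, beside 48.35 to 70.71 CPM. This library also held the lowest F7 (131.4 CPM), F10 (533.6 CPM) and Proc (484.5 CPM) and the highest F9 (291 CPM) and Ggcx (122.5 CPM) of its group, while its summed hepatocyte markers (140400 CPM) were not low. The cause was not tested in any of the 4 cases.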

How the results depend on the processing

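Of 900 member fold changes recomputed under 10 alternatives, 840 kept their direction and their side of the threshold, 28 newly passed it, 12 no longer did and 20 changed sign, none of these 20 called before. Of 42 calls of other named genes, 33 were lost with the share of reads outside genes as covariate and at most 6 under any other alternative. At an unadjusted p below 0.01 the members called against control were 1 for nilotinib 10 mg/kg (5.97% of all genes), 5 for nilotinib 30 mg/kg (9.35%) and 2 for ponatinib 3 mg/kg (3.14%). Between ponatinib and nilotinib at 10 mg/kg there were 4 (6.73%). With the outside share as covariate the members called were 1 for imatinib, 0 for nilotinib 30 mg/kg, 1 for ponatinib 10 mg/kg, 0 for L-NAME and 2 for any difference. Genes called in all were then 653, 96, 369, 258 and 1144, in that order. With only the groups compared 3 members were called for nilotinib 30 mg/kg (1376 genes in all in place of 826). DESeq2 called 4 there (1007 genes in all). Between ponatinib and nilotinib at 10 mg/kg it called 3 (502 genes in all in place of 295). The 5 left-out libraries, chosen after seeing the data, gave 1 to 4 members for nilotinib 30 mg/kg and 0 to 1 between the ponatinib doses. Between ponatinib and nilotinib they gave 0 to 5. The 4 came without ponatinib 10 mg/kg replicate 2 (839 genes in all) and the 5 without its replicate 4 (535 genes in all).

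On the log2 scale the sign changed for F2 with imatinib (0.031 with the covariate). It changed for Gas6 with imatinib (0.0037 with DESeq2 size factors, 0.027 with the covariate, 0.0029 with only the groups compared and 0.0036 by DESeq2) and for F7 with nilotinib 10 mg/kg (0.017 with size factors, 0.00067 with only those groups, 0.017 by DESeq2). It changed for Proz with ponatinib 10 mg/kg (0.021, covariate), for F2 with L-NAME (0.007996 with size factors, 0.059 with the covariate, 0.00799 by DESeq2) and for Ggcx between the ponatinib doses (0.075, covariate). Left-out libraries gave ranges across 0 for F7 with nilotinib 10 mg/kg (-0.0093 to 0.0096), F9 with ponatinib 3 mg/kg (-0.0053 to 0.018), F2 with L-NAME (-0.014 to 0.015), and, between the ponatinib doses, F7 (-0.025 to 0.13), Gas6 (-0.23 to 0.30) and Ggcx (-0.14 to 0.0078), and Ggcx between ponatinib and nilotinib (-0.053 to 0.088). Over classified reads of all kinds the outside share under ponatinib 3 mg/kg exceeded control by 0.356 points (exact permutation adjusted p = 0.0558).

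Counts over all genes moved too. With only the groups compared they were 1376 in place of 826 for nilotinib 30 mg/kg, 0 in place of 6 for ponatinib 3 mg/kg, 32 in place of 199 between the ponatinib doses and 48 in place of 295 between ponatinib and nilotinib. With the covariate they were 653 for imatinib, 13 for nilotinib 10 mg/kg, 96 for nilotinib 30 mg/kg, 369 for ponatinib 10 mg/kg, 258 for L-NAME, 0 between the ponatinib doses and 1144 for any difference. DESeq2 called 359 for nilotinib 10 mg/kg in place of 202, 25 for ponatinib 3 mg/kg, 304 between the ponatinib doses, 2 between the nilotinib doses and 502 between ponatinib and nilotinib. Without the filter 127 were called for nilotinib 10 mg/kg, 14 for ponatinib 3 mg/kg and 100 between the ponatinib doses. For any difference 6658 were called, with all 10 members. These counts come from a larger set of tested genes. An unadjusted p below 0.01 gave 855 and 1339 for nilotinib 10 and 30 mg/kg, 449 for ponatinib 3 mg/kg, 828 and 189 between the ponatinib and the nilotinib doses and 964 between ponatinib and nilotinib. Without nilotinib 10 mg/kg replicate 1 its count was 124. Without ponatinib 10 mg/kg replicate 4 the counts were 355 for nilotinib 10 mg/kg, 658 between the ponatinib doses and 535 between ponatinib and nilotinib, and without its replicate 2 they were 15 for ponatinib 3 mg/kg and 322 between the ponatinib doses. Without ponatinib 3 mg/kg replicate 2 its count was 2.

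No paired analysis was possible because the labels give each mouse its own number and no number is shared between groups. Doses are nominal, the liver holds several cell types, and mRNA levels say nothing of carboxylation or plasma activity.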
